A study of Homo sapiens with 6 samples.

Results

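The genes described here encode proteins by which B cells are recognised and by which their antigen receptor is tuned, most of them on the cell surface. They were chosen by name: 9 symbols were looked up in the gene name column of the deposited comparison, and 8 of them had a row among its 34675 genes. These were CR2, CD81, CD22, CD72, FCRLA, FCER2, MS4A1 and CD37. CD24 had no row under its symbol and has no value here.

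The values come from U2932 cells, a human line established from diffuse large B cell lymphoma. RNA sequencing was done on 3 samples infected with the short hairpin plasmid TRCN0000358536, directed against PRDM11, and on 3 samples infected with a scrambled hairpin in pLKO-puro. Both groups were selected with puromycin for 3 days, so infection and selection were common to all samples. A single hairpin and a single cell line limit the groups as a model of PRDM11 loss. PRDM11 is a PR domain protein, one of a family of chromatin and transcription regulators. The comparison addresses how gene expression differs once it is knocked down. Separate cultures are not stated in the labels. The p-values therefore reflect only how far these samples spread, which could be technical.

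The deposited comparison names its sides condition A and condition B only. No header or label says which is the knockdown, so each difference is stated for condition A against condition B. In the authors' deposited table PRDM11 itself stood at 287.6 normalised reads (condition A) and 542.1 (condition B). A normalised read is a read count divided by the authors' size factor for the library. The means summed to 43812481 normalised reads for condition A and 41847907 for condition B. The reads of single libraries were recovered from the deposited means, and libraries are numbered within a condition by falling size factor, from 1.21 to 0.768 in condition A and from 1.09 to 0.951 in condition B. These numbers match no replicate number in the labels. All 7 B lineage markers that were looked up, CD79A and PAX5 among them, had a mean of at least 50 normalised reads, whereas 0 of the 5 T and NK cell markers with a row and 0 of the 5 myeloid markers with a row did. T and NK markers summed to 131.7 and 143.7 and myeloid markers to 66.8 and 54.1 normalised reads in conditions A and B. CD3E had 14.1 and 7.82, and LYZ had 0.926 and 1.31. Of 6 epithelial and fibroblast markers 2 reached 50, EPCAM with 1285 and 1242 and COL1A1 with 52.7 and 61.3.

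The B cell receptor does not signal alone. The complement receptor CR2 (CD21) sits in a surface complex with the tetraspanin CD81 and IFITM1 (Leu-13), and this coreceptor lowers the threshold for activation when antigen carries complement. CD22, a lectin for sialic acid, and CD72, a receptor for SEMA4D, act in the other direction: their cytoplasmic tails carry inhibitory tyrosine motifs (ITIMs) that recruit the phosphatase SHP-1, the product of PTPN6. MS4A1 is CD20, the target of therapeutic anti-CD20 antibodies, CD37 is a leukocyte tetraspanin, FCER2 is CD23, the low-affinity IgE receptor, and FCRLA is an Fc receptor-like protein that is retained inside the cell.

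Of the 8 genes, CD72 and CR2 were lower and FCRLA was higher in condition A at a deposited adjusted p under 0.05. The other five, CD22, CD81, CD37, MS4A1 and FCER2, did not pass. Across all rows 2.54% passed in either direction, 1.57% lower and 0.966% higher. Among rows with a mean of at least 100 normalised reads, which holds all of the 8 but FCER2, the share was 6.27%, with 4.06% lower and 2.21% higher, and among rows with a mean of at least 10000, where FCRLA lies, it was 5.2%, with 1.73% lower and 3.47% higher. At an adjusted p under 0.01 only CD72 of the 8 passed, against 1.46% of all rows, 0.934% lower and 0.522% higher. With 8 genes picked by name after results were known, 3 calls are a description and not a test of the group. Their median log2 ratio, over the 7 with a mean of at least 50, was -0.05, against -0.0024 over all 13565 rows with such a mean.

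**Figure D1:**
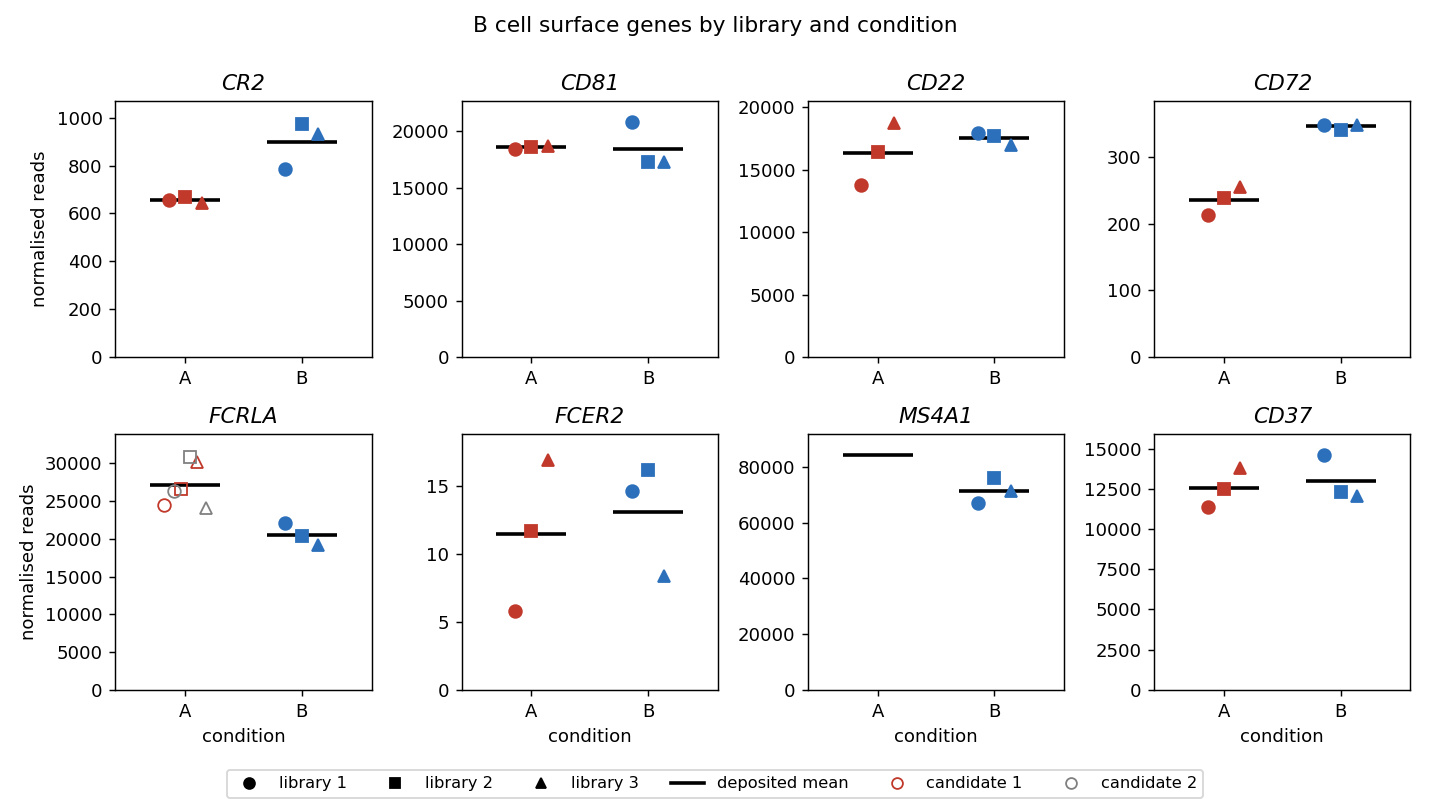
Normalised reads of the 8 genes (vertical axes from 0, a scale for each gene) in conditions A and B. Filled points are recovered libraries, bars the deposited means and open points the 2 solutions for FCRLA in condition A. CR2 and CD72 lie lower in all 3 libraries of condition A, with CR2 at 644.2 to 667.1 against 784.5 to 973.8 in condition B. MS4A1 in condition A is drawn as its deposited mean only.

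CR2, the receptor for complement fragment C3d, was lower in condition A. Its coding intervals lie on chromosome 1 between 207627764 and 207658896 (hg19), in 19 blocks (ENSG00000117322). In condition A the libraries held 655, 667.1 and 644.2 normalised reads, from 792, 684 and 495 reads. Those of condition B held 784.5, 973.8 and 933, from 856, 1023 and 887 reads. The ranges did not overlap, and condition B was more spread out, with library 1 lowest. Groups also did not overlap in genes that were not called, BTK and SEMA4D among them. The share over all genes was not counted, so such a gap is only a description, here and below. The authors' deposited table gives means of 655.4 and 897.1 for CR2, and a log2 ratio of -0.45. Its standard error, worked back from the deposited p, was 0.13 (DESeq adjusted p = 0.0246).

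The start of CR2 is shown because CR2 is one of the 3 called genes and can be set beside the others. The sequence runs from 250 bases before to 50 bases after the gene's start on its plus strand (RefSeq, GRCh38.p14, chr1:207454078-207454377), with matches to any of 7 searched motifs in capitals:
CR2: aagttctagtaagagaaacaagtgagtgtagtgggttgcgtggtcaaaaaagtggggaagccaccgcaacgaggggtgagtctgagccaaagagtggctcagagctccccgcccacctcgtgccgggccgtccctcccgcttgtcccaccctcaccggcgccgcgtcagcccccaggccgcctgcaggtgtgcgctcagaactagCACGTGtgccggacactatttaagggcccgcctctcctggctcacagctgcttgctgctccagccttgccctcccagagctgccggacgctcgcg
The capitals mark 1 match, CACGTG, an E-box bound by MYC and USF factors, whose first base lies at -45 from the gene's start. This motif occurred in 7.26% of 35116 such windows in the table. The 7 motifs, searched on both strands, were AP-1 (TGANTCA, in 7.71% of windows), the cyclic AMP response element (TGACGTCA, 1.85%), the E-box, the octamer (ATGCAAAT, 1.77%), the PU box (GAGGAA, 27.9%), the EBF1 motif (1.21%) and the TATA box (TATAAA, 11.5%). A match is a run of letters, not evidence of binding.

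CD81, a tetraspanin that organises receptors in the membrane, was not called. Its coding intervals lie on chromosome 11 from 2398780 to 2418093 in hg19 (ENSG00000110651). Condition A held 18432, 18598 and 18657 normalised reads and condition B 20811, 17233 and 17296, so the groups overlapped and library 1 of condition B was highest. In condition A these values rest on a narrower search, explained with the processing. The deposited means for CD81 in the authors' deposited table were 18562 and 18447, a log2 ratio of 0.01 (DESeq adjusted p = 1). A fit of the recovered libraries across all genes put CD81 at 0.01 on the log2 scale, standard error 0.08 (limma adjusted p = 0.925). Worked back from the deposited p, as for the other genes, the standard error of CD81 was 0.41, a value that is imprecise where p is near 1. The level of CR2 relative to CD81 was lower in condition A by 0.46 on the log2 scale (-4.82 on average against -4.36), and all 3 libraries of condition A were below the 3 of condition B. An exact two-sided permutation test of this gave p = 0.1, the smallest that 3 against 3 libraries allow. It is no separate support, since CR2 was already called in these data.

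IFITM1, an interferon-induced membrane protein found with CR2 and CD81, was called lower. It had 53.8, 67.3 and 66.4 normalised reads in condition A against 105.4, 95.2 and 114.7 in condition B, and the groups did not overlap. The authors' deposited table gives IFITM1 a log2 ratio of -0.75 (DESeq adjusted p = 0.0199). CR1, a second complement receptor, had 4, 2 and 3 reads in condition A and 8, 25 and 16 in condition B and was not called (DESeq adjusted p = 0.118, the authors' deposited table).

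CD72, the inhibitory receptor for SEMA4D, was lower in condition A. Its coding intervals lie on chromosome 9 from 35610624 to 35618300 in hg19, in 8 blocks (ENSG00000137101). Condition A held 212.6, 238 and 255.1 normalised reads, from 257, 244 and 196 reads. Condition B held 348.3, 340.8 and 347.1, from 380, 358 and 330 reads. The groups did not overlap, and the spread in condition B was small, with an SD of 4.03 against 21.4 in condition A (n = 3 each). The authors' deposited table gives means of 235.2 and 345.4 for CD72, a log2 ratio of -0.55 and, from its p, a standard error of 0.14 (DESeq adjusted p = 0.00861). CD72 was 1.47-fold higher in condition B.

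The start of CD72, shown for the same reason, is on the minus strand (RefSeq, GRCh38.p14, chr9:35618364-35618663):
CD72: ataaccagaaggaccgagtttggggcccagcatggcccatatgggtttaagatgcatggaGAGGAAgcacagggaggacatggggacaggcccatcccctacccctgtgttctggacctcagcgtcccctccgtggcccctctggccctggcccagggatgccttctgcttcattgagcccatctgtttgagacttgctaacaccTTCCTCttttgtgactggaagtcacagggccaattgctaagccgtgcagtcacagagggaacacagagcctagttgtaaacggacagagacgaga
The capitals mark 2 matches to the PU box, GAGGAA with its first base at -190 and, on the opposite strand, TTCCTC at -45. None of the other 6 motifs was found in this window.

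CD22, the sialic acid-binding inhibitory receptor, was far more abundant than CD72 and was not called. Its coding intervals lie on chromosome 19 from 35822944 to 35837597 in hg19 (ENSG00000012124). The condition A libraries, again from the narrower search, were spread from 13782 and 16369 to 18714 normalised reads around the 17931, 17709 and 16944 of condition B. The groups overlapped. The log2 ratio of CD22 in limma was -0.12 with all libraries, -0.00 without library 1 of condition A and -0.22 without library 3 of condition A. The authors' deposited table gives means of 16289 and 17528 for CD22, a log2 ratio of -0.11 and, from its p, a standard error of 0.09 (DESeq adjusted p = 1). The level of CD72 relative to CD22 was lower in condition A by 0.44 on the log2 scale (-6.10 on average against -5.66), in all 3 libraries. The exact two-sided permutation p was 0.1, the smallest possible here. It is no separate support, since CD72 was already called in these data.

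PTPN6, the phosphatase that binds the tails of both receptors, was called lower along with CD72. It had 2667, 2469 and 2709 normalised reads in condition A against 4258, 4054 and 3751 in the other condition. Its log2 ratio was -0.62 by the authors' deposited table (DESeq adjusted p = 1.95e-05). PTPN11, the related phosphatase SHP-2, had 12876 and 12510 normalised reads, and INPP5D, the lipid phosphatase SHIP-1, had 10289 and 9513 (DESeq adjusted p = 1 for each, the authors' deposited table). SIGLEC10, a sialic acid-binding receptor for CD24, had a log2 ratio of -0.41 and SEMA4D, the ligand of CD72, 0.31 in the authors' deposited table, and neither was called (DESeq adjusted p = 0.141 and 0.211). Of 14 genes with a row among 16 inhibitory receptors, ligands and phosphatases, PTPN6 and CD72 were lower and 0 higher. The median log2 ratio of the 10 with a mean of at least 50 was 0.01.

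**Figure D2:**
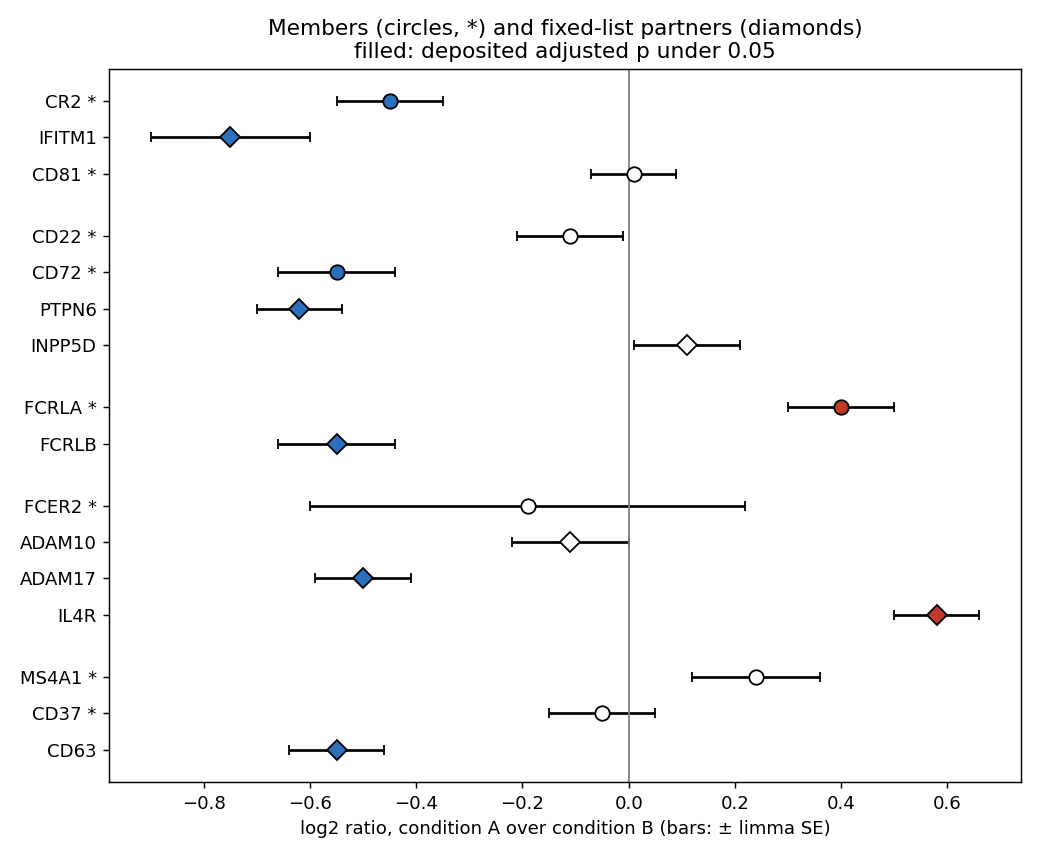
Log2 ratio of condition A over condition B (horizontal axis) from the deposited means for the 8 genes (circles, starred) and genes of the fixed lists that act with them (diamonds). Bars are ± 1 standard error of the limma fit of recovered libraries, for FCRLA and MS4A1 the largest over their possible solutions. Filled symbols passed the deposited adjusted p of 0.05. CR2 and IFITM1 lie at -0.45 and -0.75 while CD81 lies at 0.01, and FCRLA at 0.40 lies opposite to FCRLB at -0.55.

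FCRLA was the 1 gene of the 8 called higher in condition A. Its coding intervals lie on chromosome 1 from 161677004 to 161683167 in hg19, in 7 blocks (ENSG00000132185). Condition B held 22109, 20355 and 19208 normalised reads. In condition A the deposited mean fitted 2 sets of whole reads, either 24491.5, 26602 and 30157.1 or 26373.9, 30806.2 and 24070.5 normalised reads in libraries 1 to 3. In both sets every library of condition A was above every library of condition B. The authors' deposited table gives means of 27084 and 20557 for FCRLA, a log2 ratio of 0.40 and, from its p, a standard error of 0.12 and a DESeq adjusted p of 0.0452, close to the threshold.

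The start of FCRLA, on the plus strand (RefSeq, GRCh38.p14, chr1:161706979-161707278), is the third of this set:
FCRLA: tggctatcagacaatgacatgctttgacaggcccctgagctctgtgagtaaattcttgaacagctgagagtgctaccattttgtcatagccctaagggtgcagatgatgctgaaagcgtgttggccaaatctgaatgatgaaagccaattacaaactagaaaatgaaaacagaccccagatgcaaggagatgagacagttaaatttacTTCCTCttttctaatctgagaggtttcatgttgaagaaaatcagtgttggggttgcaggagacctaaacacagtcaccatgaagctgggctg
The capitals mark 1 match to the PU box on the opposite strand, TTCCTC, with its first base at -42. Of the 7 motifs, CR2 thus shared none with CD72 or FCRLA in these windows, and the PU box seen in both of the latter is also the commonest of the 7 among all windows. AP-1 letters were not found in any of the 3 windows.

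FCRLB, the gene next to FCRLA, was called in the opposite direction. Its coding intervals begin 9295 bases after those of FCRLA, with 0 other genes' coding intervals between them in the deposited track. FCRLB had 771.7, 768.5 and 881 normalised reads in condition A and 1344, 1122 and 1084 in condition B, with no overlap. The authors' deposited table gives FCRLB a log2 ratio of -0.55 (DESeq adjusted p = 0.00137). The level of FCRLA relative to FCRLB was higher in condition A by 0.94 on the log2 scale (5.06 against 4.12), with either solution for FCRLA and in all 3 libraries. The exact two-sided permutation p was 0.1, and the same after Benjamini-Hochberg adjustment over the 3 gene pairs compared in this way. Each pair holds a gene already called in these data, so these p-values largely restate the calls and are no separate support. The remaining family members with a mean of at least 50 were not called: FCRL1 and FCRL2 had log2 ratios of -0.12 and -0.49, and FCRL3 and FCRL5 0.08 and -0.09 in the authors' deposited table. Of the 7 family genes with a row, 1 was higher and 1 lower.

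MS4A1 (CD20) had the highest level of the 8 and was not called. Its coding intervals lie on chromosome 11 from 60229720 to 60235938 in hg19 (ENSG00000156738). Condition B held 67164, 75856 and 71152 normalised reads. The mean of 84146 in condition A fitted 9 sets of whole reads, so no value per library is given there. The authors' deposited table gives MS4A1 a log2 ratio of 0.24 and, from its p, a standard error of 0.11 (DESeq p = 0.0335, adjusted p = 0.418). MS4A7, the only other gene of the MS4A list with a mean of at least 50, had 163.2 and 132.2 normalised reads. Its log2 ratio was 0.30 by the authors' deposited table (adjusted p by DESeq, 0.555). The list held 12 family symbols, of which 7 had a row, and 0 of these were called. At an unadjusted DESeq p under 0.05 there were 2, MS4A1 and MS4A14, beside 3331 of all 34675 rows. Limma, counted without MS4A1, called 0. For MS4A1 the limma adjusted p ran from 0.0499 to 0.287, depending on the set of reads taken for condition A. Only the lowest was under 0.05, and the next lowest was 0.0531. MS4A14 had only 26.92 and 12.45 normalised reads.

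CD37, a tetraspanin of B cells, was not called either. Its coding intervals lie on chromosome 19 from 49838798 to 49843582 in hg19 (ENSG00000104894). Condition A held 11382, 12488 and 13796 normalised reads and condition B 14572, 12310 and 12052, so the groups overlapped. The authors' deposited table gives CD37 a log2 ratio of -0.05 and, from its p, a standard error of 0.08 (DESeq adjusted p = 1). Among the 17 tetraspanins looked up, all with a row, CD63 was lower and TSPAN31 higher by the authors' deposited table. CD63, a protein of late endosomes and lysosomes, had a log2 ratio of -0.55 (DESeq adjusted p = 0.00138). That of TSPAN31 was 0.60 (DESeq adjusted p = 0.00473). The median of the 15 with a mean of at least 50 was -0.14. TSPAN17 and TSPAN15, the nearest to the threshold, had log2 ratios of -0.34 and -0.44 by the authors' deposited table (adjusted p by DESeq, 0.108 and 0.142).

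FCER2 (CD23) was close to the floor of these libraries. Its coding intervals lie on chromosome 19 from 7754082 to 7764646 in hg19 (ENSG00000104921). It had 7, 12 and 13 reads in condition A and 16, 17 and 8 in condition B, that is 5.79, 11.7 and 16.9 against 14.7, 16.2 and 8.42 normalised reads. The groups overlapped widely, and the log2 ratio was -0.24, standard error 0.41, in the fit of recovered libraries (limma adjusted p = 0.742); a difference within this error was not detectable at this depth.

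Of the genes that bear on CD23, IL4R and ADAM17 were called. IL4R, the receptor chain through which interleukin 4 induces CD23, was higher in condition A, with 8068, 9037 and 9559 normalised reads against 6099, 5896 and 5798. Its log2 ratio was 0.58 by the authors' deposited table (DESeq adjusted p = 0.000155). ADAM17, a sheddase of surface proteins, was lower with a log2 ratio of -0.50 (DESeq adjusted p = 0.00458, the authors' deposited table), whereas ADAM10, the main sheddase of CD23, had 6615 and 7125 normalised reads and was not called. CXCR5 and RBPJ had log2 ratios of 0.28 and 0.11 by the authors' deposited table (adjusted p by DESeq, 0.371 and 1). Of the 8 genes listed for CD23 regulation and shedding, 1 was higher and 1 lower.

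Per length, MS4A1 was highest of the 8 genes and FCER2 lowest. Levels were taken as normalised reads per kilobase of the longest GENCODE 29 transcript, which is approximate, since the transcripts used by these cells are not known. MS4A1 stood at 24215 in condition A and 20544 in condition B, followed by FCRLA at 9330 and 7081. CD22 ranged over the 6 libraries from 4217 to 5726, CD37 from 3588 to 4594 and CD81 from 3292 to 3975, and each of these neighbours overlapped the next. CR2, at 151.9 to 229.7, and CD72, at 104.5 to 171.1, overlapped as well and lay far below, and FCER2 was lowest at 3.03 to 8.86. IFITM1 stood at 73.1 and 122.9 per kilobase, so CD81 was higher than CR2, and CR2 higher than IFITM1, in both conditions.

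**Figure D3:**
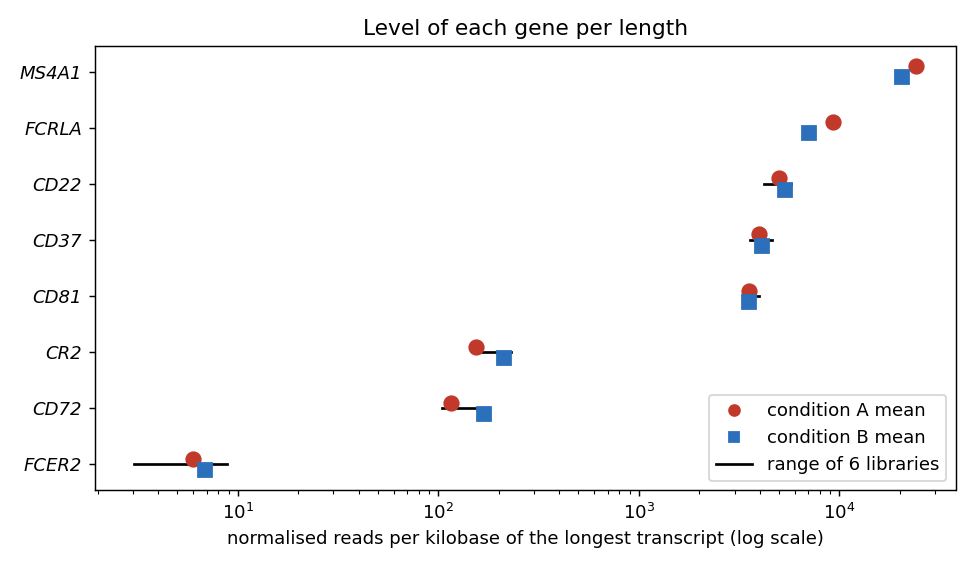
Normalised reads per kilobase of the longest transcript (horizontal log axis) for the 8 genes. Circles and squares are the deposited means of conditions A and B, and lines the range over the 6 recovered libraries where these had a single solution. The lines of CD22, CD37 and CD81 lie between 3292 and 5726, and FCER2 lies below 10.

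The remaining lists place these genes among other B cell surface and signalling genes. Of 12 genes of the B cell receptor complex and its kinases, CD79B, a signalling chain of the receptor, was higher with a log2 ratio of 0.42 (DESeq adjusted p = 0.0226) and FYN, a Src family kinase, lower with -0.57 (DESeq adjusted p = 0.000113) by the authors' deposited table. The median of the list was 0.04. PTPRC (CD45) and BTK had log2 ratios of -0.25 and -0.17 and were not called (DESeq adjusted p = 0.414 and 0.847, the authors' deposited table). Of 27 other B cell surface markers with a row, CD180, a Toll-like receptor homologue, and TNFRSF13C, the BAFF receptor, were lower with log2 ratios of -0.73 and -0.64, and 0 were higher in the authors' deposited table. CD69, an early activation marker, had 587.2, 418.4 and 249.9 normalised reads in condition A against 141.1, 156.1 and 170.4 in condition B. The groups did not overlap, condition A was widely spread, and the log2 ratio of 1.42 did not pass (DESeq adjusted p = 0.0898, the authors' deposited table). TNFRSF13B (TACI) had a log2 ratio of 0.38 (DESeq adjusted p = 0.0727, the authors' deposited table).

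**Figure D4:**
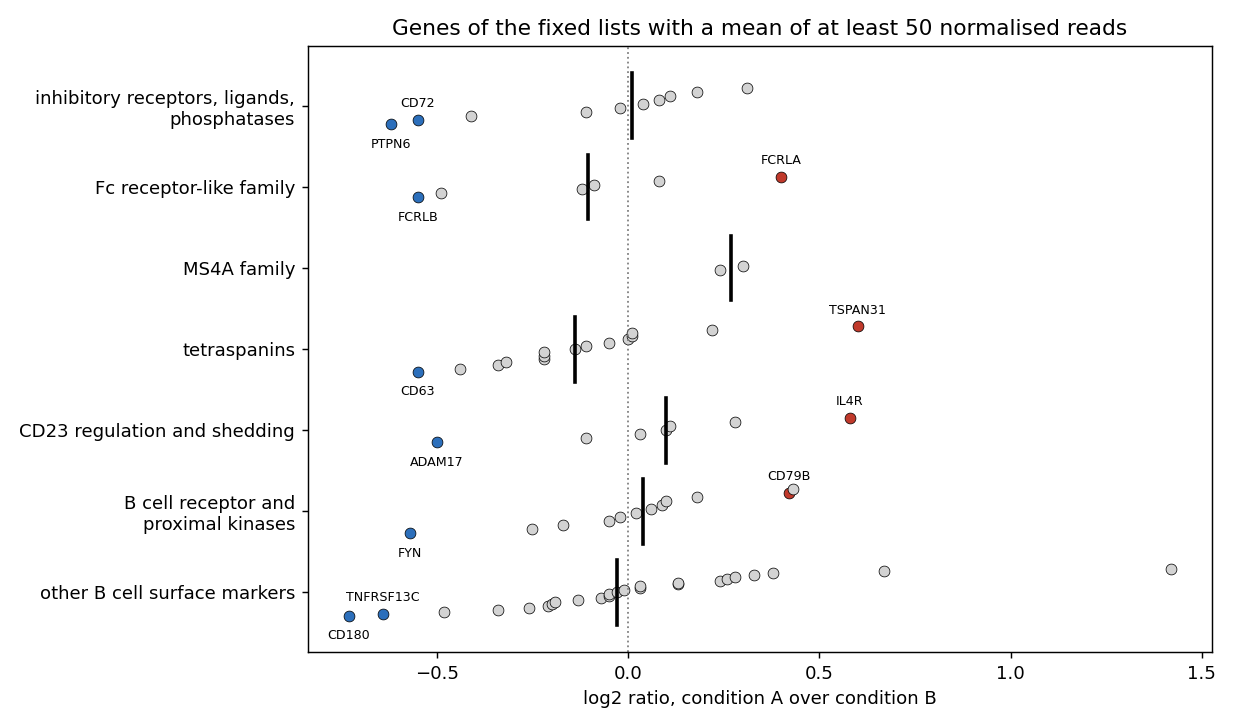
Log2 ratio of condition A over condition B (horizontal axis) for each gene of 7 lists with a mean of at least 50 normalised reads, a point per gene and a bar at each list's median. Blue points were called lower and red points higher in the authors' deposited table, and names are given for called genes. The medians of the 7 lists lie between -0.14 and 0.27.

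Over the 6 libraries, the genes of these lists whose levels ran most like those of CD72 were CD180 and TNFRSF13C, with Pearson correlations of 0.994 and 0.979 on the log2 scale. For CR2 they were ADAM17 and CD1C, with 0.984 and 0.931. These are the highest of 72 correlations each, over 6 libraries that share the split into conditions and their size factors. For FCRLA the nearest genes depended on the solution taken for condition A: CD27 (0.993) and TNFRSF13B (0.991) with one, SEMA4D (0.853) and IL4R (0.826) with the other.

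The 3 calls rest on 3 libraries a condition. In a limma fit of the recovered reads, CD72, CR2 and FCRLA passed with all libraries (adjusted p of 0.0123, 0.0237 and, for the 2 solutions, 0.024 and 0.0315). All 3 missed the threshold without library 2 of condition A, library 2 of condition B or library 3 of condition B, with the directions kept. Over all genes, that test called 731 higher and 961 lower with all libraries, and 159, 177 and 178 higher and 271, 219 and 252 lower in those 3 settings. Without library 1 of condition A the calls rose to 1077 higher and 1302 lower. They were 681 and 1060 without library 3 of condition A, and 570 and 620 without library 1 of condition B.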

How the data were processed

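Per the submitters' processing notes, the tools were STAR, HTSeq (0.5.4p5) and DESeq (version 1.14.0), and the build was hg19. The sources used here give neither annotation nor strandedness, so a gene and an overlapping antisense gene cannot be told apart. The deposited table holds 1 comparison: means per condition (a signal in reads divided by the authors' size factors, per the file headers), their fold ratio, the log2 of this ratio, and p-values before and after adjustment. The deposited log2 ratio is condition B over A, and its sign was turned here. The implied standard error is the size of the log2 ratio divided by the normal quantile of the deposited p. A second deposited file lists coding intervals on hg19 with a score that was not used. Its starts count from 1, since 97.6% of intervals then match GENCODE 29 coding lengths. There were 0 columns of values per sample.

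Each mean is a weighted sum of 3 whole numbers printed with 15 digits, so reads per library were recovered by integer search. Means up to 1500 were searched freely, higher ones with each library at 0.7 to 1.4 times the mean. Where several solutions remained, 0.8 to 1.25 times was used, which decided CD22 and CD81 in condition A. Among freely searched genes with a mean over 500, 92.5% lay within the narrow window in condition A and 98.02% in condition B. On simulated means over 10000, 68.9% of 866 genes were recovered in condition A with 6 wrong, and 100.0% of 809 in condition B with 1 wrong. The simulated libraries had a fixed spread, not fitted to these data and smaller than that of CD22 in condition A. The wrong solutions may thus be too few for genes spread as widely.

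Calls are the deposited adjusted p under 0.05. Recovered libraries were also fitted with limma 3.58.1 (R 4.3.3, trend, log2 of normalised reads plus 1, mean of at least 10, 17284 genes). The recovered reads with 1 solution in both conditions came to between 25064016 and 38706210 a library and held 73.5% and 75.2% of the summed means of conditions A and B. Promoter windows came from a table of RefSeq gene starts, in which 6 of the 9 symbols were matched. Named genes are the 8 with a row, the called genes of each list, the 2 uncalled ones with the smallest p and a mean of at least 50, and the nearest correlates. Genes named beyond this rule, as partners or family members, were added with their values seen. Members and lists were chosen with earlier results of these data known. A gene that this rule names, and the counts of the list that holds it, are not reported here.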

Additional observations from a re-analysis of the deposited data

How the results depend on the processing

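No paired analysis was possible because the recovered libraries carry no replicate number of the labels. Centring on the median gene, scaling both conditions to the same sum and a pseudocount of 10 changed no direction of the 3 called genes. Equal sums moved CD81, which was not called, from 0.01 to -0.06. Of the 8 genes, 0 were called higher and 1 lower at a threshold of 0.01 (0.522% and 0.934% of all rows). At 0.05 the counts were 1 higher and 2 lower (0.966% and 1.57% of all rows). These counts at 0.05 were the same with adjustment over rows with a mean of at least 10 or 100. A threshold of 0.1 also gave 1 higher and 2 lower. No share over all rows is given for these other settings. Leaving out 1 library at a time in limma, 0 to 1 were higher and 0 to 2 lower. The log2 ratio then ran from -0.62 to -0.49 for CD72, from -0.54 to -0.38 for CR2 and from 0.30 to 0.47 for FCRLA over both solutions, whose use was decided after the data were seen. FCRLA missed the threshold without library 2 of condition A (0.41 and 0.30 for the 2 solutions), library 2 of condition B (0.39 for both) and library 3 of condition B (0.35 and 0.34). Genes that were not called changed sign: CD81 ran from -0.03 to 0.10, CD37 from -0.12 to 0.04 and FCER2 from -0.55 to 0.15. CD22, not called either, ran from -0.22 to -0.00. No such range is given for MS4A1, whose reads in condition A had many possible solutions. With all libraries, limma put MS4A1 at 0.22 to 0.24 over these solutions. The limma adjusted p ran from 0.0499 to 0.287. Only the lowest, 0.0499, was under the threshold, and the next lowest was 0.0531. At 0.01, 0 genes were higher in the Fc receptor-like and B cell receptor lists. With limma, 1 gene was higher among inhibitory receptors, ligands and phosphatases, 2 tetraspanins were lower and 4 other surface markers higher. Over all 17284 genes limma called 731 higher and 961 lower. Genes that passed in limma but not by the deposited p included SEMA4D (limma adjusted p = 0.0321) and TSPAN17 (0.0426). CD27 (0.0214), CD69 (0.0106) and TNFRSF13B (0.0254) did so among the other surface markers. The cause of these shifts was not tested.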

Other observations

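Within condition A, library 3 held the highest normalised reads of CD22, CD37, CD72, CD81 and FCER2 and library 1 the lowest of each. CR2 was lowest in library 3. For CD81 the libraries ran only from 18432 to 18657 normalised reads, and for FCER2 from 7 to 13 reads. The values of CD22 and CD81 rest on the narrower search. Library 3 has the smallest size factor of the 6 (0.768). For CD22 the spread was a coefficient of variation of 15.1% in condition A against 2.95% in condition B, and for CR2 1.74% against 11.1%. With 3 libraries a condition these spreads are descriptions.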
